A study of Mus musculus with 3 samples.

Results

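The caudal ganglionic eminence (CGE) is a ventral forebrain zone that gives rise to cortical interneurons, as its neighbor the medial ganglionic eminence (MGE) does. Messenger RNA of 7 genes grouped as enriched in the CGE or its interneurons, among them the COUP-TF nuclear receptors, was followed in 3 sorted cell populations that were defined by an MGE reporter. The 7 genes were *Nr2f1*, *Nr2f2*, *Nr2f6*, *Nr2e1*, *Sp8*, *Prox1* and *Htr3a*. Their probes were those on the array whose accession is a RefSeq transcript of the gene, and 9 of 55681 mouse probes met this, with 2 probes each for *Nr2f1* and *Sp8* and 1 for each of the other genes. In all, RefSeq transcripts named 20145 genes on the array.

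RNA was measured on 3 single-color Agilent arrays, 1 array for each population and all on 1 slide. ES-derived cells with and without GFP (ES-Lhx6-GFP+ and ES-Lhx6-GFP-, below ES-GFP+ and ES-GFP-) were sorted by flow cytometry from embryoid body aggregates of J14 mouse ES cells of the 129S4/SvJae background, labelled male, at day 12 of a differentiation toward MGE that used Dkk-1 (100 ng/ml) and the hedgehog agonist SAG (6 nM). MGE-GFP+ cells were sorted from the MGE of female CD1 embryos at E12.5. All 3 populations carried an *Lhx6*-GFP BAC transgene, in which regulatory sequences of *Lhx6* drive GFP, and per the labels the J14 cells also carried a 692-mCherry viral enhancer reporter. J14 is a single ES cell line, and the number of embryos pooled is not given in the sources used here. Origin, strain, sex and dissociation enzyme changed together between the embryo and the ES cells, so these cannot be told apart in either comparison with MGE-GFP+ cells. The ES-GFP- population is every live cell of the aggregates without GFP, and no GFP-negative cells of the embryo were analysed here.

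COUP-TFs are orphan nuclear receptors of the NR2F group that bind DNA as dimers and mostly repress transcription. Nr2f1 (COUP-TFI) and Nr2f2 (COUP-TFII) pattern the forebrain, and Nr2f2 is enriched in the CGE and guides the migration of its interneurons, while Nr2f1 is also present in the dorsal MGE. Sp8 and Prox1 act in the specification and maturation of CGE-derived interneurons, and Htr3a, a subunit of the ionotropic serotonin receptor, marks most of these cells once they have left the cell cycle.

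There was 1 array per population, so no test between populations and no SD between replicates could be computed. Differences are given as log2 of the background-subtracted intensity after each array was scaled to its 75th percentile, and a difference of at least 2-fold is named as such with no p-value. Intensities and their sums are given before scaling. The 75th percentiles were 747 for ES-GFP+, 843 for ES-GFP- and 576 for MGE-GFP+ cells, so the order of intensities can differ from that of scaled values. As a yardstick of array noise, repeat spots of the same probe gave an SD of log2 intensity of 0.139, 0.141 and 0.144 on the ES-GFP+, ES-GFP- and MGE-GFP+ arrays, so that 2 SDs of a difference between arrays came to 0.40 in each comparison for a gene with 1 probe. How far separate cultures, embryos, sorts or amplifications would vary is not in this spread. A second yardstick were 106 control probes that match no mouse transcript (adenovirus E1A and ERCC sequences). Their 95th percentile was an intensity of 377 for ES-GFP+, 208 for ES-GFP- and 152 for MGE-GFP+ cells. Of these control probes 86, 35 and 34 were called well above background by the scanner software, and 90.6%, 80.3% and 77.1% of mouse probes were, so the dim end of the ES-GFP+ array was brighter than that of the others. All 9 member probes were called well above background on all 3 arrays, but only 4, those of *Nr2f1*, *Nr2f2* and *Prox1*, exceeded the 95th percentile of the control probes on all 3. As a check of the sort, *Lhx6* itself read 22250, 4061 and 29400 on the ES-GFP+, ES-GFP- and MGE-GFP+ arrays (mean of 3 probes), a log2 difference of 2.63 between both ES populations. The brightest *Lhx6* probe alone differed less than 2-fold between them, so this check rests on the other probes.

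The 250 bases before the RefSeq transcription start (GRCm38.p6) are shown for 5 of the genes that differed at least 2-fold in a comparison, because *Nr2e1* went one way while *Nr2f2*, *Nr2f6*, *Sp8* and *Prox1* went the other in the embryonic cells. Each runs 5′ to 3′ on the strand of the gene, and capitals mark every match, on either strand, to the nuclear receptor hexamer AGGTCA (or TGACCT), the GC box GGGCGG (or CCGCCC) bound by Sp proteins, the homeodomain core TAATTA, or the TATA box TATAAA (or TTTATA).
Nr2e1 (chr10:42583591-42583840, minus strand): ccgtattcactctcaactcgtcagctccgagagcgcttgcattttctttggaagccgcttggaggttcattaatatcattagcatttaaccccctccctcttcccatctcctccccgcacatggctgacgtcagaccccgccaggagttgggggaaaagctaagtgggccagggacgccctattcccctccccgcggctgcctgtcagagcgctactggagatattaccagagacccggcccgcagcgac
Nr2f2 (chr7:70366747-70366996, minus strand): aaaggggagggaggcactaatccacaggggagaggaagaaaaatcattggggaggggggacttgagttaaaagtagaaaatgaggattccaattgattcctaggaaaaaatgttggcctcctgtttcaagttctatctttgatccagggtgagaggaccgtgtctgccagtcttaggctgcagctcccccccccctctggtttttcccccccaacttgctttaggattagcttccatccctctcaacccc
Nr2f6 (chr8:71381953-71382202, minus strand): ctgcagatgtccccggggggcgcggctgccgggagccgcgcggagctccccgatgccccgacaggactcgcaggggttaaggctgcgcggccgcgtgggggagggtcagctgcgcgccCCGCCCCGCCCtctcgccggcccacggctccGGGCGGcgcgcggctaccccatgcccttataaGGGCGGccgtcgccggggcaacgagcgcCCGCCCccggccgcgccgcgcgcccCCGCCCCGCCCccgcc
Sp8 (chr12:118846983-118847232, plus strand): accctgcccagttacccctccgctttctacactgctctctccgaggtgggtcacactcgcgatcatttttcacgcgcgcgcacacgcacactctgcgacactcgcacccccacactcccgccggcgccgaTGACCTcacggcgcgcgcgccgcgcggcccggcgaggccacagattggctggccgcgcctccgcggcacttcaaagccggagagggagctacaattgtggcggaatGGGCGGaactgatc
Prox1 (chr1:190170828-190171077, minus strand): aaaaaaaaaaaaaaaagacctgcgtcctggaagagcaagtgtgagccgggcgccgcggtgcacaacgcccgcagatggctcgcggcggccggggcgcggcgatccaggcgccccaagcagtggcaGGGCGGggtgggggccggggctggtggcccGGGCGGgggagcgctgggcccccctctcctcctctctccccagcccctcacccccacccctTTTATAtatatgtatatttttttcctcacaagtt

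In these windows *Nr2f6* held 7 GC boxes, some of which overlap, with a GC content of 82.4%. *Prox1* held 2 GC boxes and a TATA box whose first base is at position -34 before the start. Of 3 annotated *Sp8* starts the one whose window held an AGGTCA hexamer is shown, at position -120, with 1 GC box at position -14. The windows of the other *Sp8* starts held 2 TATA boxes and 1 homeodomain core, and that of the second *Prox1* start held 1 GC box. Neither *Nr2e1* nor *Nr2f2* held a match, with GC contents of 58.0% and 50%. Over all 32841 promoters of the same length 14% held the hexamer, 32.7% a GC box, 4.84% the homeodomain core and 12.4% a TATA box, and the median GC content was 52.4%. Windows were found for 6 of the 7 genes (all but *Htr3a*), and those of *Nr2f1* are described by their counts, 1 GC box in the upstream window and no match in the other.

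Among the COUP-TFs, *Nr2f1* was bright in all 3 populations and differed little between them. Its first probe had an intensity of 10700 in ES-GFP+, 14210 in ES-GFP- and 7360 in MGE-GFP+ cells. Its second probe read 10130, 8656 and 7205 in the same order. Both probes lay at least 26.9 times above the control probes' 95th percentile on every array. After scaling, the probes disagreed on the ES-GFP- cells, which were highest by the first probe and lowest by the second. The log2 difference of ES-GFP+ over ES-GFP- cells was -0.23 by the first probe and 0.40 by the second, which is just past 2 SDs of a single probe. Their mean of 0.08 (1.06-fold) was below 2 SDs, which come to 0.28 for 2 probes. MGE-GFP+ cells differed from ES-GFP+ cells by -0.14 and from ES-GFP- cells by -0.06, again below 2 SDs. The sign of all 3 values turned after scaling to the 50th percentile, to -0.36, 0.61 and 0.25, so no order of the populations can be given for *Nr2f1*.

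*Nr2f2* was lower in the embryonic cells than in either ES population. Its probe read 4769 in ES-GFP+, 4435 in ES-GFP- and 1322 in MGE-GFP+ cells, 8.70 times the control probes' 95th percentile even where it was lowest. The ES populations were close, and the embryonic cells stood apart below both. The log2 difference of MGE-GFP+ cells was -1.48 (2.78-fold lower) against ES-GFP+ cells and -1.20 against ES-GFP- cells. Against ES-GFP+ cells it ranged from -1.70 to -0.73 over all processing settings, and against ES-GFP- cells from -1.32 to -0.89. Between the ES populations the difference of 0.28 was below 2 SDs, and it became -0.16 after scaling to the 50th percentile.

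*Nr2f6* (EAR2), the most divergent member of the NR2F group, was highest in ES-GFP- cells and lowest in the embryonic cells. It read 415 in ES-GFP+, 757 in ES-GFP- and 144 in MGE-GFP+ cells, the last within the range of the control probes and the first only 1.10 times their 95th percentile. ES-GFP+ cells were lower than ES-GFP- cells by a log2 difference of -0.69 (1.62-fold). MGE-GFP+ cells differed by -1.15 from ES-GFP+ and by -1.84 (3.59-fold lower) from ES-GFP- cells. All 3 differences passed 2 SDs and kept their direction under every processing setting, but the one against ES-GFP+ cells was -0.51 in the deposited log2 values and -0.40 after scaling to the 50th percentile.

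**Figure D1:**
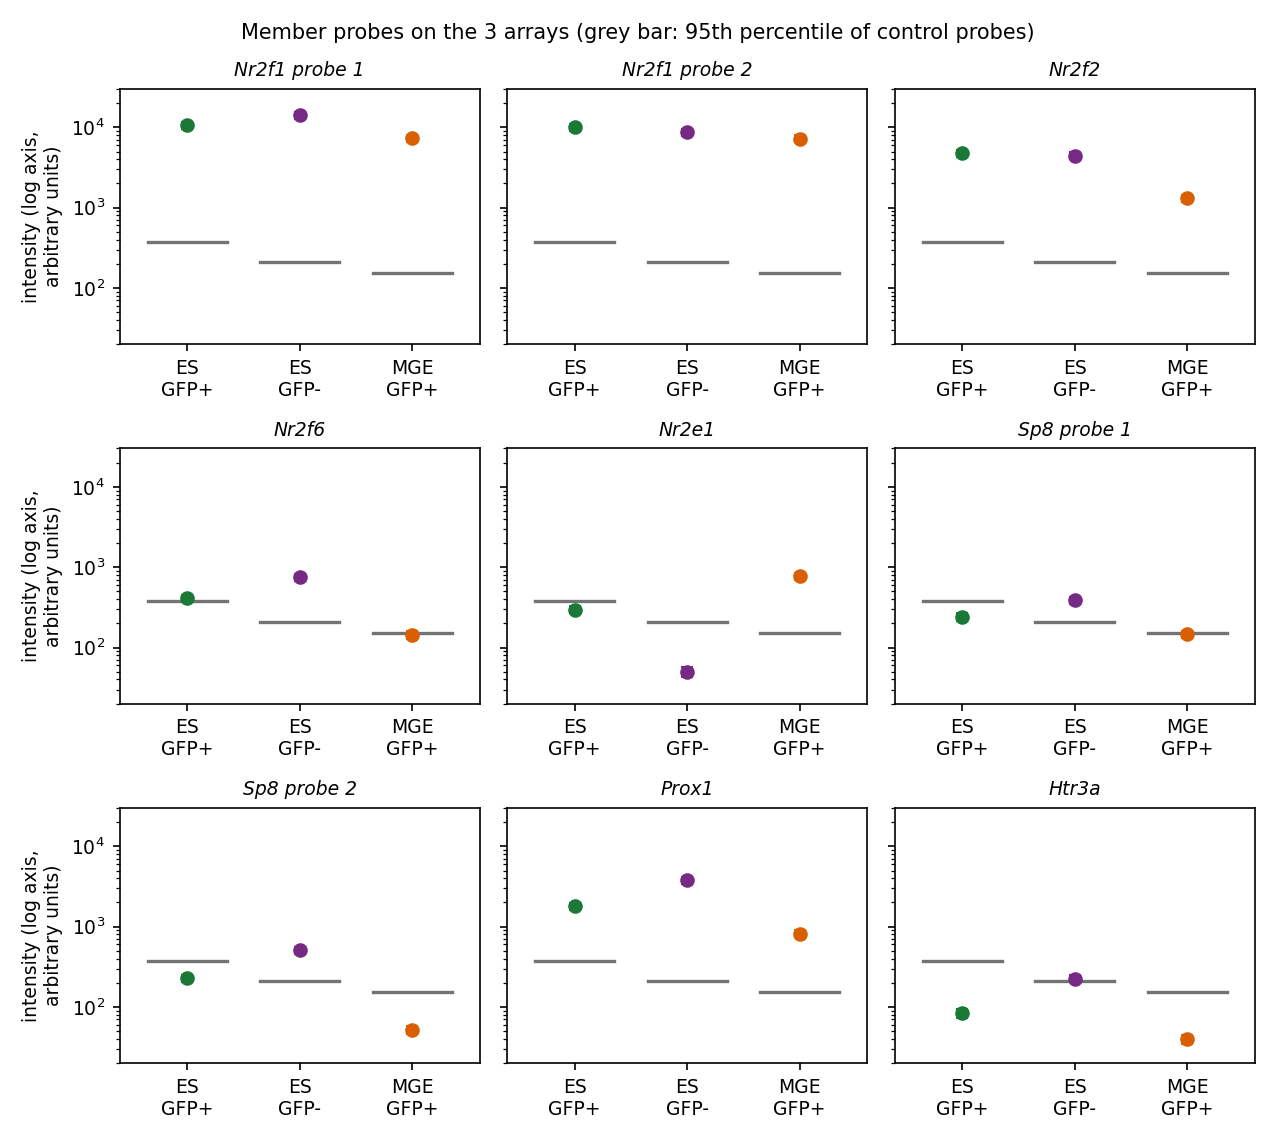
Background-subtracted intensity (arbitrary units, log axis) of each of the 9 member probes on the 3 arrays, 1 spot per point. Error bars, mostly hidden by the points, are the error the scanner software gives the spot, and each grey bar is the 95th percentile of the 106 control probes of that array. Probes of *Nr2f1*, *Nr2f2* and *Prox1* lie above the grey bars on every array, *Nr2e1* only in MGE-GFP+ cells, and *Sp8* and *Htr3a* only in ES-GFP- cells.

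*Nr2e1* (Tlx) is an orphan receptor known for maintaining neural stem cells of the forebrain and for its part in patterning the telencephalon. With the scaling used here it was the only one of the 7 that was highest in the embryonic cells. After scaling to the 50th percentile *Nr2f1* was highest there too. The *Nr2e1* probe read 297 in ES-GFP+, 49.5 in ES-GFP- and 774 in MGE-GFP+ cells. Both ES values were within the range of the control probes, at 0.79 and 0.24 times their 95th percentile, while the embryonic value was 5.10 times it. The log2 difference was 2.76 (6.77-fold) between ES-GFP+ and ES-GFP- cells. It was 1.76 (3.38-fold) between MGE-GFP+ and ES-GFP+ cells and 4.52 (22.9-fold) between MGE-GFP+ and ES-GFP- cells. Among all mouse probes with a value, these differences stood at percentiles 96.6, 99.2 and 99.9. The size depended on how dim signal was treated. In the deposited log2 values, which keep the background, the 3 differences were 1.54, 1.76 and 3.30. With a floor at the control probes' 95th percentile, the embryonic cells were higher by at least 1.41 and 2.44 on the log2 scale, and no value could be given between the ES populations because both lay under the floor. The raised dim end of the ES-GFP+ array runs the same way as the difference between the ES populations, and its part in that difference was not tested.

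*Sp8*, a zinc finger factor of the Sp family, was highest in ES-GFP- cells by both of its probes. The first read 241 in ES-GFP+, 385 in ES-GFP- and 146 in MGE-GFP+ cells. The second read 227, 507 and 52.4. Both exceeded the control probes' 95th percentile only on the ES-GFP- array, by 1.85 and 2.43 times. Averaged over the probes, ES-GFP+ cells were lower than ES-GFP- cells by a log2 difference of -0.74 (1.67-fold), and the probes gave -0.50 and -0.98. MGE-GFP+ cells differed from ES-GFP- cells by -1.79, but the probes gave -0.85 and -2.73. With the floor at the control probes the mean was -0.99, just under 2-fold. Against ES-GFP+ cells the mean was -1.05 (2.06-fold lower), from -0.35 and -1.74. It fell under 2-fold to -0.18 in the deposited log2 values, -0.30 with the 50th percentile and -0.33 with quantile normalization, where the first probe was at 0.049, 0.40 and 0.23, and to -0.60 with normexp and -0.70 without background subtraction. In this comparison the first probe was below 2 SDs, and both arrays were within the range of the control probes, so the call of 2-fold rested on the second probe at signal that the control probes also reach.

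*Prox1*, a homeodomain factor, was above the control probes in every population and highest in ES-GFP- cells. It read 1783 in ES-GFP+, 3777 in ES-GFP- and 817 in MGE-GFP+ cells, at 4.73, 18.1 and 5.38 times the control probes' 95th percentile. The levels thus formed 3 steps, each larger than 2 SDs. ES-GFP+ cells were lower than ES-GFP- cells by a log2 difference of -0.91 (1.88-fold), which was between -1.35 and -0.84 over all settings. MGE-GFP+ cells were lower than ES-GFP- cells by -1.66 (3.16-fold). Between MGE-GFP+ and ES-GFP+ cells the difference was -0.75, and the deposited log2 values gave -0.88, but scaling to the 50th percentile left only -0.0031.

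*Htr3a* was close to the control probes or within their range in every population. It read 83.4 in ES-GFP+, 225 in ES-GFP- and 39.5 in MGE-GFP+ cells, and only the ES-GFP- value passed the control probes' 95th percentile, by 1.08 times. ES-GFP+ cells were lower than ES-GFP- cells by a log2 difference of -1.26 (2.39-fold), and by -1.20 in the deposited log2 values and -2.23 with quantile normalization. The difference fell under 2-fold with normexp (-0.60) and without background subtraction (-0.65), and the floor at the control probes gave no value. MGE-GFP+ cells were lower than ES-GFP- cells by -1.96, which shrank to -0.02 with the floor at the control probes. The difference of -0.70 between MGE-GFP+ and ES-GFP+ cells was 0.044 with arrays scaled to the 50th percentile, 0.80 with quantile normalization and 0.18 in the deposited log2 values, so no direction can be given between these populations.

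**Figure D2:**
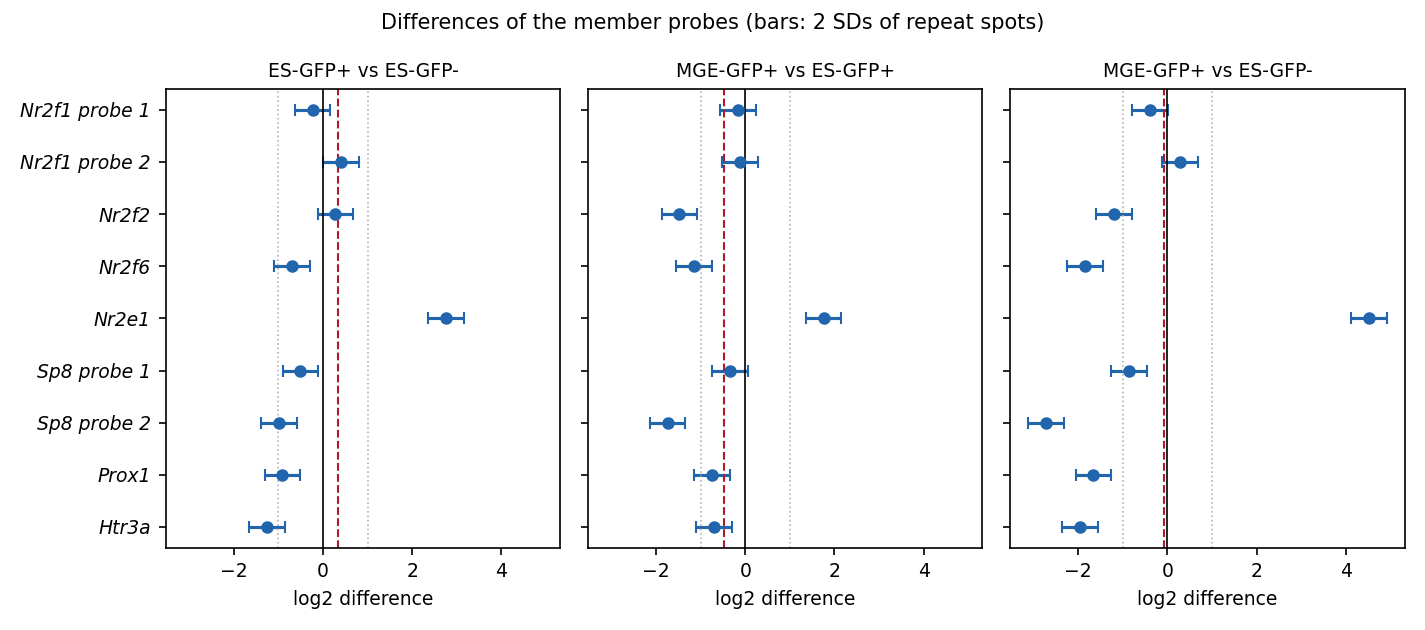
Log2 difference of each member probe (x axis) in the 3 comparisons, with bars of 2 SDs of a difference between repeat spots. The dashed line is the median of all mouse probes (0.34, -0.47 and -0.08 from left to right) and dotted lines mark 2-fold. *Nr2e1* lies to the right in all 3 panels, from 1.76 to 4.52, and *Nr2f6*, *Sp8*, *Prox1* and *Htr3a* lie to the left of 0.

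Between the ES populations 2 of the 7 genes differed at least 2-fold, *Nr2e1* (higher in ES-GFP+ cells) and *Htr3a* (lower), against 32.3% of all probes with a value. That background was uneven, with 27.3% of probes higher in ES-GFP+ cells and 5.0% lower, around a median of 0.34. Of the 7 genes, 3 were higher and 4 lower. Differences of *Nr2f6*, *Nr2e1*, *Sp8*, *Prox1* and *Htr3a* passed 2 SDs, as did those of 64.0% of probes. Only *Nr2e1* passed 4-fold, which 10.7% of probes did. Of the called probes 84.5% were higher with the scaling used here, but 59.6% with the 50th percentile, 46.7% with quantile normalization and 55.1% in the deposited log2 values. Over the probes that exceeded the control probes on 1 array or both, the background of 2-fold differences was 14.5%. Counted by probe, as these shares are, 2 of the 9 member probes passed 2-fold, 7 passed 2 SDs and 1 passed 4-fold.

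MGE-GFP+ cells differed at least 2-fold from ES-GFP+ cells in 4 genes, against 39.7% of all probes. *Nr2e1* was higher and *Nr2f2*, *Nr2f6* and *Sp8* were lower, where 5.01% of all probes were higher and 34.7% lower. The median of all probes was -0.47 in this comparison, and relative to it *Nr2f2* was at -1.01 and *Prox1* at only -0.29. Past 2 SDs were 6 genes, all but *Nr2f1*, and 70.0% of probes, while 0 genes and 14.8% of probes passed 4-fold. The share of called probes that were higher was 12.6% here, 55.8% with the 50th percentile, 54.2% with quantile normalization and 43.4% in the deposited log2 values. Where a probe had to exceed the control probes on 1 array or both, the background of 2-fold differences was 18.3%. After scaling to the 50th percentile *Nr2e1* was the only gene of the 7 left past 2-fold. By probe, with the scaling used here, 4 of the 9 member probes passed 2-fold, 6 passed 2 SDs and 0 passed 4-fold.

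Against ES-GFP- cells, MGE-GFP+ cells differed at least 2-fold in 6 of the 7 genes, where 24.7% of all probes did. *Nr2e1* was higher, as 9.5% of probes were, and *Nr2f2*, *Nr2f6*, *Sp8*, *Prox1* and *Htr3a* were lower, as 15.2% of probes were. The median of all probes was -0.08. The same 6 genes passed 2 SDs, as 61.3% of probes did, and *Nr2e1* alone passed 4-fold, as 6.56% of probes did. Over probes above the control probes on 1 array or both, the background of 2-fold differences was 25.3%. The count was 5 with the 50th percentile and 6 both with quantile normalization and in the deposited log2 values. With the floor at the control probes it was 4. Of the called probes 38.4% were higher, against 61.3% with the 50th percentile and 50.2% with quantile normalization. Among the 9 member probes 6 passed 2-fold and 7 passed 2 SDs. Past 4-fold were 2, the *Nr2e1* probe and the second *Sp8* probe at -2.73. Each array is used in 2 of the 3 comparisons, so the comparisons are not independent and are given side by side only.

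**Figure D3:**
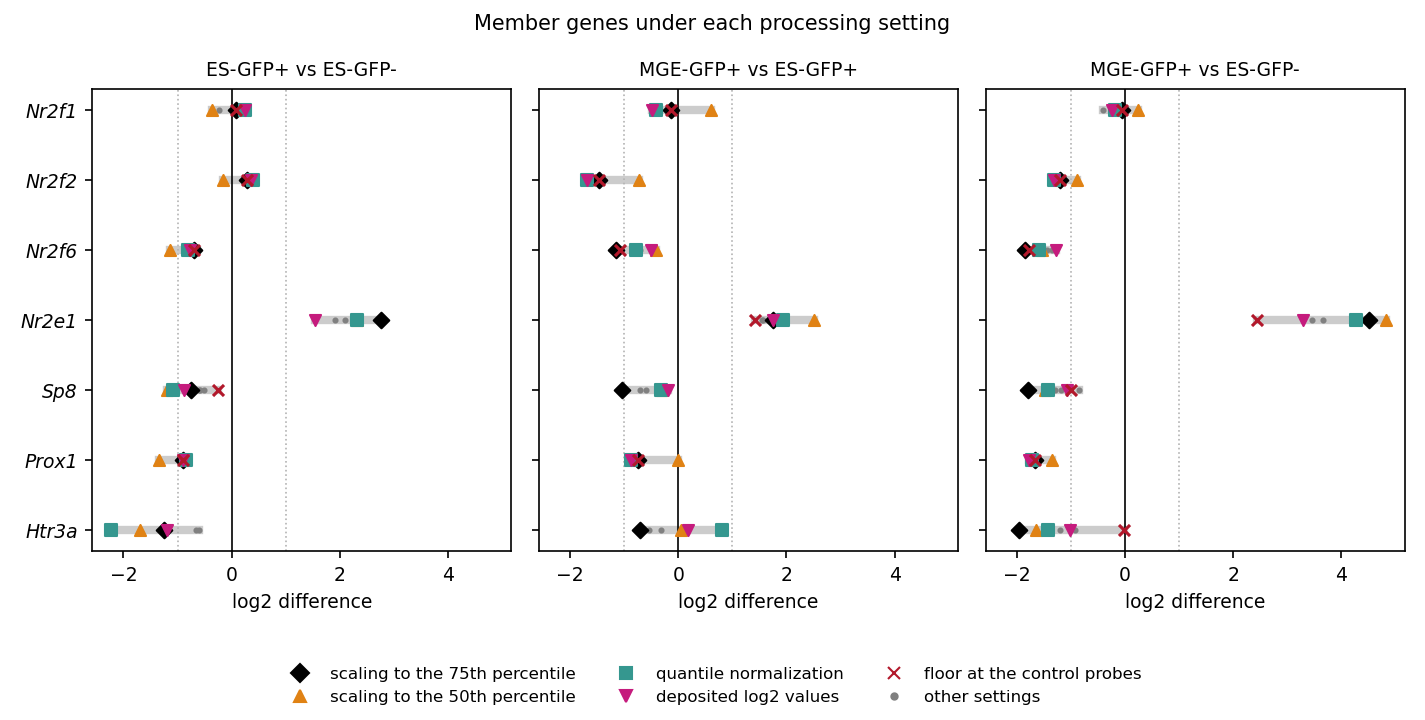
Log2 difference of each member gene (x axis) in the 3 comparisons under each processing setting, with the grey band from the lowest to the highest value and dotted lines at 2-fold. *Nr2e1* stays above 1 in every setting that gives a value, from 1.41 to 4.82, while *Htr3a* in MGE-GFP+ against ES-GFP+ cells spans both signs, from -0.70 to 0.80.

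Other genes of CGE-derived interneurons were found on both sides in every comparison. The list held 16 further genes, all on the array. In ES-GFP+ against ES-GFP- cells 6 were at least 2-fold higher and 1 was lower, with a median log2 difference of 0.66 beside 0.27 for all genes, of which 24% were higher and 6.40% lower. Of the 6 higher genes 4 (*Vip*, *Scgn*, *Crh* and *Sp9*) were within the range of the control probes on both arrays. The 7 differences of at least 2-fold became 3 in the deposited log2 values and 2 with the floor at the control probes, and the median of 0.66 became 0.076 in the deposited values and 0.13 with quantile normalization. *Npas1*, a bHLH-PAS factor, was highest in ES-GFP+ cells, at 1790 against 256 in ES-GFP- and 223 in MGE-GFP+ cells, a log2 difference of 2.98 between the ES populations. The paper lists *Npas1* among its markers of MGE interneurons, so its level is not particular to the CGE. *Adarb2*, an RNA-editing family member, was 1.74 higher in ES-GFP+ than in ES-GFP- cells. *Ndnf*, a secreted factor, was lower there by -1.28. In MGE-GFP+ against ES-GFP+ cells 4 were at least 2-fold higher and 6 lower, with a median of -0.02 beside -0.36 for all genes, of which 5.48% were higher and 32.2% lower. *Scgn* (secretagogin, a calcium-binding protein) was 2.39 higher and *Cnr1* (a cannabinoid receptor) 1.75 higher. *Lamp5*, a lysosome-associated membrane protein, read 3827 in ES-GFP+, 5775 in ES-GFP- and 88.4 in MGE-GFP+ cells, so the embryonic cells were lower than both ES populations, by -5.06 and -5.48 on the log2 scale. *Cck*, a neuropeptide, was lower in MGE-GFP+ than in ES-GFP+ cells by -2.84. Against ES-GFP- cells 5 genes were at least 2-fold higher and 4 lower of 15 with a value, with a median of 0.24, and of all genes 9.90% were higher and 17.2% lower. The counts of 10 and 9 in these comparisons both became 5 with the floor at the control probes. *Vip* and *Calb2*, which mark mature CGE-derived interneurons, stayed within the range of the control probes on all 3 arrays, at 99.6, 3.72 and 5.42 for *Vip*, which was well above background only in ES-GFP+ cells, and 143, 93.0 and 7.19 for *Calb2*.

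With the scaling used here, the relatives of the members among the NR2 receptors and their RXR partners differed less than 2-fold where they were above the control probes, apart from *Rxra*. Of 8 such genes, 1 differed at least 2-fold between the ES populations, *Hnf4a*, which was within the range of the control probes on both arrays. Of all genes 24% were higher in ES-GFP+ than in ES-GFP- cells and 6.40% lower. *Rxrb*, a partner in receptor dimers, read 2096 in ES-GFP+, 4116 in ES-GFP- and 1922 in MGE-GFP+ cells, a log2 difference of -0.80 between the ES populations. *Nr2c2* (TR4) read 1500, 1542 and 1451 and its log2 differences were 0.14, 0.33 and 0.46 in the order of the comparisons above. MGE-GFP+ cells were at least 2-fold lower than ES-GFP+ cells in 3 of the 8, all within the range of the control probes, beside 32.2% of all genes. They were lower than ES-GFP- cells in 1, *Rxra*, by a log2 difference of -1.24, beside 17.2% of all genes.

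Of 12 genes listed as co-regulators of NR2 receptors, the largest differences were in the COUP-TF-interacting zinc finger factors. *Bcl11b* (Ctip2) read 787 in ES-GFP+, 170 in ES-GFP- and 1986 in MGE-GFP+ cells (mean of 2 probes). Its log2 difference was 2.38 between the ES populations, 1.71 between MGE-GFP+ and ES-GFP+ cells and 4.09 between MGE-GFP+ and ES-GFP- cells. *Bcl11a* (Ctip1) read 2596, 1014 and 5570, with log2 differences of 1.53, 1.48 and 3.01. Both rank the populations as *Nr2e1* does, highest in MGE-GFP+ and lowest in ES-GFP- cells. *Zfpm1* (FOG1), also on this list, ran the other way, at 358, 831 and 88.6, with log2 differences of -1.04, -1.64 and -2.68. Its relative *Zfpm2* read 72.8, 121 and 40.5, within the range of the control probes on all 3 arrays. The corepressor *Ncor1* and the atrophins *Atn1* and *Rere*, of which *Atn1* binds Nr2e1, were within 0.24 on the log2 scale in all 3 comparisons with the scaling used here. After scaling to the 50th percentile they were at 0.90, 0.84 and 0.74 between MGE-GFP+ and ES-GFP+ cells. In all, 2 of the 12 were at least 2-fold higher and 1 lower in ES-GFP+ than in ES-GFP- cells, with a median of 0.04, beside 24% and 6.40% of all genes and a median of 0.27.

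*Sp9*, the relative that acts together with Sp8 in interneurons, read 193 in ES-GFP+, 63.7 in ES-GFP- and 275 in MGE-GFP+ cells and passed the control probes only in MGE-GFP+ cells. It was highest in MGE-GFP+ cells, where the mean of the *Sp8* probes was lowest, with log2 differences of 1.77, 0.89 and 2.66. Against ES-GFP+ cells the first *Sp8* probe was below 2 SDs and *Sp8* was within the control range on both arrays. The opposite order of *Sp8* and *Sp9* there thus rests on the second *Sp8* probe. The 8 Sp genes other than *Sp8* had a median log2 difference of 0.33, -0.01 and 0.08 in the 3 comparisons. *Sp4*, an activator at GC boxes, was between -0.01 and 0.23 with the scaling used here and at -0.21, 0.74 and 0.53 with the 50th percentile. Of 13 further serotonin receptor genes, *Htr1d* alone passed the control probes on any array, at 275, 302 and 222, with log2 differences of 0.04, 0.07 and 0.11. The other 12, *Htr3b* among them, were within the range of the control probes in all 3 populations.

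**Figure D4:**
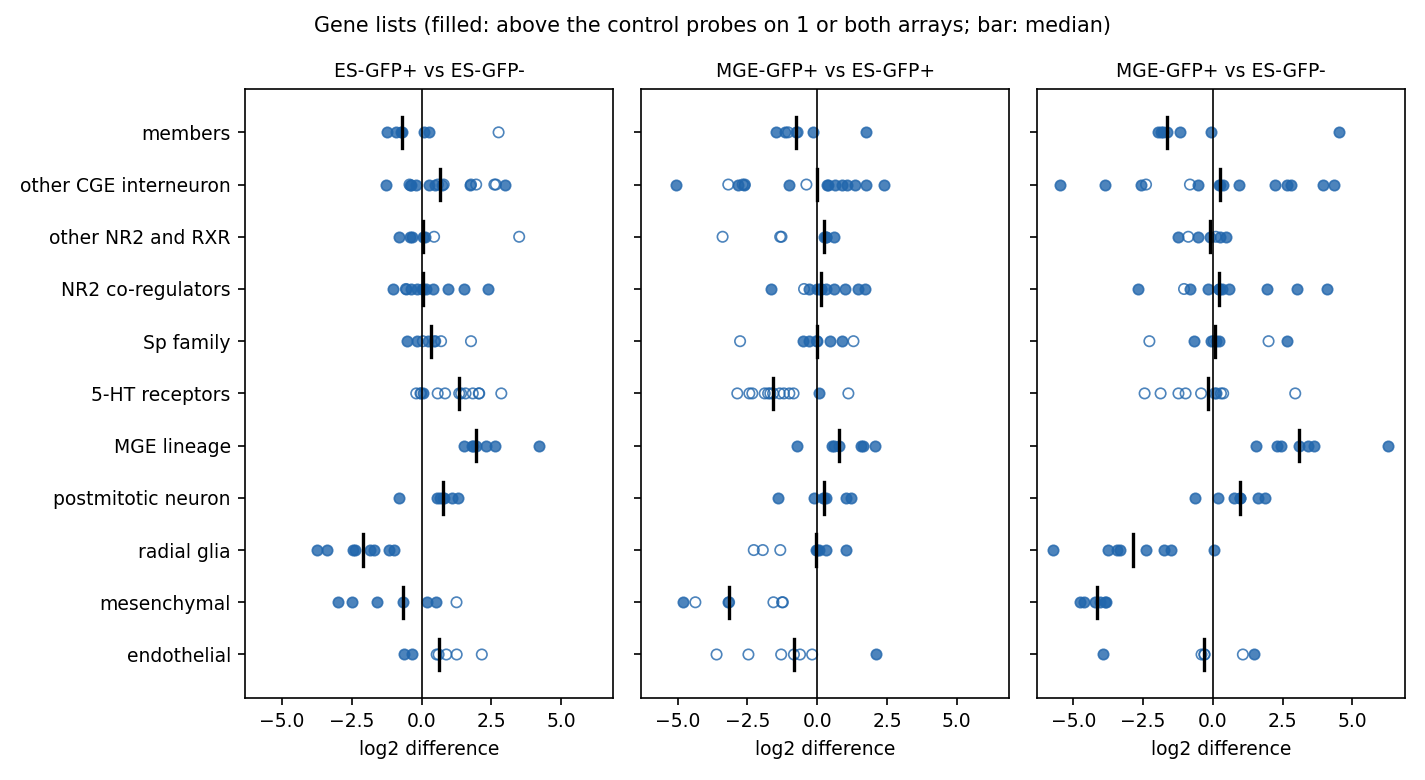
Log2 difference (x axis) of each gene of the lists in the 3 comparisons, 1 point per gene, filled where the gene exceeded the control probes on 1 array or both, with a bar at the list's median. The 7 MGE lineage genes lie right of 0 in the left and right panels (medians 1.96 and 3.09), and radial glia genes lie left in the same panels (medians -2.10 and -2.86) except *Sox2* at 0.06 in the right one, while other CGE genes spread to both sides.

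Markers of other cells were read beside the members, since Nr2f2 and Prox1 are also known from endothelial cells and Nr2f1 and Nr2f2 from mesenchyme. A lower level in a sorted population may mean fewer cells with the RNA or less of it in each cell, and bulk arrays do not separate these. *Lhx6* and the other MGE lineage genes, 7 of 7, were at least 2-fold higher in ES-GFP+ than in ES-GFP- cells. They were so in MGE-GFP+ against ES-GFP- cells too, and of all genes 24% and 9.90% were higher in these comparisons. With only the brightest probe of each gene, 6 of the 7 differed at least 2-fold between the ES populations, *Lhx6* being the exception. Of 8 radial glia genes 7 were at least 2-fold lower in ES-GFP+ than in ES-GFP- cells, beside 6.40% of all genes. The summed intensity of the 8 was 9053, 51420 and 8490 in ES-GFP+, ES-GFP- and MGE-GFP+ cells. *Vim*, an intermediate filament of progenitors, read 1473, 17270 and 1181 and *Slc1a3*, a glutamate transporter of radial glia, 152, 2338 and 30.4. *Nr2f6*, *Sp8*, *Prox1* and *Htr3a* were also highest in ES-GFP- cells, whereas *Nr2e1* was lowest there, and the part of progenitor content in these differences was not tested.

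Mesenchymal genes were lowest in the embryonic cells, with a summed intensity of 2953, 5006 and 187 over 7 genes, of which 2, 6 and 0 exceeded the control probes. The collagen *Col3a1* read 1231, 1228 and 33.9, while *Dcn*, an extracellular matrix proteoglycan, read 74.1, 666 and 24.4 and the mesenchymal factor *Twist1* read 140, 475 and 4.94, not well above background in MGE-GFP+ cells. The list and *Nr2f2* were both lowest in the embryonic cells, and the part of mesenchymal cells in that was not tested. Between the ES populations 3 of the 7 genes were at least 2-fold lower and 1 higher in ES-GFP+ cells (list median -0.65 on the log2 scale). Of all genes 6.40% were lower and 24% higher there. With the floor at the control probes 0 of the 7 differed at least 2-fold. In the same comparison *Nr2f2* was at 0.28, *Col3a1* at 0.18 and the collagen *Col1a2* at -0.65. Endothelial genes summed to 833, 777 and 657 over 8 genes, of which 1, 2 and 1 exceeded the control probes. The defining endothelial genes *Cdh5*, which was not well above background on any array, and *Pecam1*, at 148, 90.2 and 46.5, were within the range of the control probes throughout. The VEGF receptors differed from each other, with *Kdr* at 142, 249 and 467, highest in MGE-GFP+ cells, and *Flt1* at 191, 270 and 5.87, lowest there and not well above background. The part of endothelial cells in the levels of *Nr2f2* and *Prox1* was not tested. Erythroid genes summed to 273, 149 and 5931, the last from *Hbb-y* at 5629, and microglial genes to 911, 586 and 678. Of the 5 erythroid genes 0, 0 and 2 exceeded the control probes, and of the 4 microglial genes 1, 1 and 2. The 7 genes of postmitotic neurons exceeded the control probes on all 3 arrays and summed to 85860, 62090 and 82330, and their median log2 difference was 0.78 between the ES populations.

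The profiles of the members that were above the control probes on all 3 arrays were set against 8934 other genes that were so too, by the root mean square distance between log2 levels centred on each gene's mean over the 3 arrays. For *Nr2f2*, 94 genes (1.05%) lay within the repeat-spot SD of 0.14, and the nearest were *Ppp1r15a*, *Camk2a* and *Sbsn*. For *Prox1* there were 97 (1.09%), with *Ctsz*, *Mrm1* and *Gaa* nearest. The flat profiles of both *Nr2f1* probes had 1081 (12.1%) and 1182 (13.2%) such genes, the nearest being *Rpl30*, *Tmem259* and *Rnf130* for the first probe and *Pcnp*, *Tnfsf8* and *Brwd1* for the second. With 3 arrays, such likeness is a description of 3 values per gene.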

How the data were processed

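Total RNA of each sorted population was amplified, labelled with Cy3 and hybridized by the authors, and the deposited scanner files give linear spot intensities, background-subtracted and detrended by Agilent Feature Extraction (version 10.7.3.1 per the file headers) without scaling between arrays. The labels and the paper differ on the amplification kit and on the array format. The authors also deposited log2 values, whose method is not given in the sources used here. They lay within 0.315 (median 0.039, 0.032 and 0.040 on the 3 arrays) of quantile-normalized log2 median intensities without background subtraction.

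Each array had 62976 spots. Spots flagged as outliers were dropped (135, 137 and 98 on the ES-GFP+, ES-GFP- and MGE-GFP+ arrays), 0 were saturated, and repeat spots were averaged. Each member probe had 1 spot. From log2 intensity the array's 75th percentile over mouse probes was subtracted. The software's call of well above background was needed on a share of 0.5 or more of a probe's spots. Otherwise it was raised to the lowest value of such probes on that array, so that its difference is a lower bound, and no difference was given where both arrays lacked the call or where the detected side lay under the other array's floor. Values of a gene's probes were averaged. Names came from matching accessions to RefSeq (26582 of 55681 probes), and other probes are unnamed here. Repeat-spot SDs used probes with at least 5 detected spots. Promoters came from RefSeq, build GRCm38.p6, and no probe coordinates were used. The calculation was tested on simulated data. Python 3.11.15, pandas 2.3.3, R 4.3.3 and limma 3.58.1 (for normexp, offset 50) were used.

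The number of arrays limits the precision, and no test, p-value or set test was computed. The members and gene lists were chosen with earlier results of these data known, so the lists support nothing on their own. Named list genes were taken from the genes with the highest and lowest differences among those above the control probes. Genes outside that rule (*Vip*, *Calb2*, *Hnf4a*, *Ncor1*, *Atn1*, *Rere*, *Htr3b* and the cell type markers) were chosen after their values were seen. Alternatives were other scalings, background treatments, floors, filters and thresholds, and the deposited values.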

Additional observations from a re-analysis of the deposited data

How the results depend on the processing

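Of 206 log2 differences of members under alternatives, 129 moved by less than the repeat-spot SD, 74 moved by more and 3 that had passed 2 SDs turned sign. Those 3 were *Htr3a* in MGE-GFP+ against ES-GFP+ cells, at 0.044 with arrays scaled to the 50th percentile, 0.80 with quantile normalization and 0.18 in the deposited log2 values. Many of the 129 could hardly move. Dropping the filter on dim probes left members unchanged, since all 9 member probes were called on every array. Keeping flagged spots barely changed any value, and an SD from probes of similar intensity changed only the yardstick. Taking the brightest probe changes nothing for a gene with 1 probe. The 129 is thus no measure of stability under the alternatives that could change a value. The count of members at least 2-fold different between the ES populations, 2 as reported, was 5 after scaling to the 50th percentile, 1 with normexp, 1 without background subtraction, 0 with the floor at the control probes and 1 at a threshold of 4-fold. Between MGE-GFP+ and ES-GFP+ cells the 4 became 1 after scaling to the 50th percentile, 2 each in the deposited log2 values, with quantile normalization, with normexp and with no background subtraction, and 0 at 4-fold. Between MGE-GFP+ and ES-GFP- cells the 6 became 1 at 4-fold and stayed between 4 and 6 otherwise. Scaling to the 50th percentile moved the median of all probes from 0.34, -0.47 and -0.08 to -0.10, 0.29 and 0.23 in the 3 comparisons. Of 351 counts of list genes, 258 stayed within 1.5 times and 93 moved by more. The normexp setting used median intensities and was chosen after seeing the data, because a column of mean intensities was not analysed here, so the planned one was not run. Naming probes through a gene name column was not run for the same reason. No paired analysis was possible because each population had 1 array. Dim signal limits *Nr2e1*, *Sp8*, *Htr3a* and *Nr2f6*, which were within the control probes' range on 1 or 2 arrays.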
